A study of Mus musculus with 6 samples.

Results

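Hepcidin and 9 further genes of iron handling were followed in liver tumours with and without the transcription factor GLI1. The members were the rows of the deposited gene count table named Hamp, Hamp2, Tfrc, Tfr2, Trf, Slc40a1, Fth1, Ftl1, Hfe and Tmprss6, which is 10 of 43346 genes. All 10 passed the filter on low counts, which kept 18359 genes.

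Bulk RNA sequencing was done on 6 mouse liver tumours, 3 with wild-type Gli1 (WT) and 3 with Gli1 knocked out (KO). By the labels, all 6 tumours were induced with the carcinogen DEN and came from mice that overexpress SULF2, an extracellular heparan sulfate sulfatase, in the line the labels call SULF2-TTR. No tumour-free liver and no tumour labelled as free of SULF2 overexpression was analysed here. Not given in the sources used here are the strain, age, DEN dose, promoter of the transgene, cells in which Gli1 was lost and whether each tumour came from its own animal. The p-values therefore measure only the spread between these samples.

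Iron homeostasis turns on hepcidin, a peptide hormone made by hepatocytes and encoded by Hamp. Hepcidin binds ferroportin, the iron exporter encoded by Slc40a1, and has it degraded, so that less iron enters the plasma. Liver Hamp transcription is driven by bone morphogenetic protein (BMP) signalling through SMAD factors, with ligands from the liver endothelium, and by interleukin-6 (IL-6) through STAT3 in inflammation. Inside cells, iron regulatory proteins bind hairpins called iron responsive elements. They block translation of ferritin and ferroportin mRNA and stabilise transferrin receptor mRNA when iron is low.

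Iron responsive elements are shown because they tie 4 members to cellular iron. The pattern searched in coding transcripts of GENCODE M21 (GRCm38) was a C, any 5 bases, and a loop of CAGTG and a base other than G. The 5 bases before the loop had to pair with the 5 after it, and at least 3 of the next 5 also had to pair. It was found in 68 of 21901 coding genes (0.31%). Capitals mark the loop.
Fth1, 5′ UTR, plus strand, chr19:9982732-9982761: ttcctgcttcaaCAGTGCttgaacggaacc
Ftl1, 5′ UTR, minus strand, chr7:45459778-45459807: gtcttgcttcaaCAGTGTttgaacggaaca
Slc40a1, 5′ UTR, minus strand, chr1:45925464-45925493: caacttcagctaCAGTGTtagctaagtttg
Tfrc, 3′ UTR, plus strand, chr16:32631219-32631248: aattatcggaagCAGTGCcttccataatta
Tfrc, 3′ UTR, plus strand, chr16:32631598-32631627: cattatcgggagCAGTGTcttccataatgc
Ferritin and ferroportin mRNA carried the hairpin ahead of the coding region. Tfrc held it after the coding region, at 4 places, of which 2 are printed. The other 6 members had no match to this pattern.

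The libraries held 75205624 to 132979502 reads in genes. Gli1 had 10, 20 and 7 reads in WT replicates 1, 2 and 3 and 4, 3 and 3 in KO, in the direction of the labels (log2 fold change -2.24 ± 0.65 SE, 3 tumours per genotype, edgeR FDR 0.9997 when added back to the genes kept). Sulf2 ranged from 2.63 to 164.5 CPM (normalized counts scaled to a common library size) over the 6 libraries, with 76.4 in WT replicate 1, 164.5 in KO replicate 1 and 11.6 or less in the other 4. The sources used here do not say whether this row can measure the transgene. All 10 hepatocyte markers were detected, with summed levels of 153800 to 201300 CPM in WT tumours and 141000 to 164900 in KO tumours. WT replicate 3 and KO replicate 1 stood apart from the other 4 libraries on the first principal component (48.3% of variance, scores 43.9 and 38.5 against -42.6 to -2.79). Their summed stellate cell markers were 381 and 621 CPM, against 95.9 to 248 in the other 4 libraries. Results are therefore also given without these libraries.

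None of the 10 iron genes showed a difference between Gli1 KO and WT tumours that passed a test. In edgeR's quasi-likelihood test 0 of 10 passed FDR 0.05, where 0 of all 18359 genes did (0%). At an unadjusted p under 0.05 there were also 0 members, against 3.62% of all genes by edgeR, 3.88% by DESeq2 and 3.48% by limma voom. The DESeq2 share is of 28057 genes, without the filter on low counts, and the other shares are of 18359. KO and WT libraries overlapped for all 10, while the groups did not overlap for 8.11% of all genes. The log2 fold change, KO minus WT, was negative for 9 of 10 members with a median of -0.15, against 9502 of 18359 genes negative and a median of -0.01 over all genes tested. Of 10 hepatocyte markers 9 were also negative, with a median of -0.28, and their part in the members' values was not tested. Without WT replicate 3 and KO replicate 1, again 0 members passed. Without WT replicate 1, 1 member, Tfrc, had an unadjusted p under 0.05 (log2 fold change -1.08, edgeR FDR 0.9992).

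Hamp and Hamp2 spanned the widest ranges of the 10 members from tumour to tumour. Hamp (ENSMUSG00000050440, chromosome 7, 30942371 to 30944017, minus strand) had 134.8, 200.9 and 28.5 normalized CPM in WT replicates 1, 2 and 3. In KO replicates 1, 2 and 3 it had 15.8, 76.7 and 232.2. Each genotype thus held 1 low tumour, WT replicate 3 and KO replicate 1, and the highest and the lowest value of all were both KO. From lowest to highest the level spanned 14.7-fold, a wider range than that of 96.7% of genes with a mean of at least 1 CPM. The log2 fold change was -0.17 ± 1.00 (SE, 3 tumours per genotype, edgeR FDR 0.9997), with a 95% interval from 0.17-fold to 4.68-fold. The value was -0.11 without both low tumours and ran from -1.39 to 0.41 when each library was left out in turn. The part in these values of the stellate cell markers, whose sum but not each marker was highest in the same pair of tumours, was not tested. In bulk tumour RNA, fewer cells of a type and less RNA per cell cannot be told apart.

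Hamp2, the second mouse hepcidin gene, lies 18190 bases from Hamp on the same strand (ENSMUSG00000056978, 30922372 to 30924181). It had 32.9, 49.1 and 6.66 CPM in WT tumours and 2.92, 21.1 and 61.4 in KO. The 6 libraries fell in the same order as for Hamp, with KO replicate 3 highest and KO replicate 1 lowest, over a 21.1-fold span. The log2 fold change was -0.05 ± 1.06 (edgeR FDR 0.9997, 95% interval 0.17-fold to 5.62-fold). The transcripts of Hamp and Hamp2 share 93.3% identity over 417 bases, so their counts are uncertain wherever a read matched both. Usf2, the next gene beside Hamp on that strand, spanned 28.5 to 52.3 CPM.

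The share of Hamp2 in the hepcidin reads varied less than the level of either gene. Hamp2 made up 19.6, 19.6 and 18.9% of Hamp plus Hamp2 reads in WT and 15.6, 21.6 and 20.9% in KO. The lowest share, in KO replicate 1, rested on 307 of 1967 reads (95% exact binomial interval 14.0 to 17.3%, counting error only). It lay below the interval of each other library, the nearest being 17.6 to 20.3% in WT replicate 3. The genotype means were 19.4 ± 0.40% (SD, n = 3) in WT and 19.4 ± 3.28% in KO. A two-sided exact permutation test gave p = 1 (1 after adjustment over 3 ratios), and 3 against 3 tumours cannot go below 0.1.

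**Figure D1:**
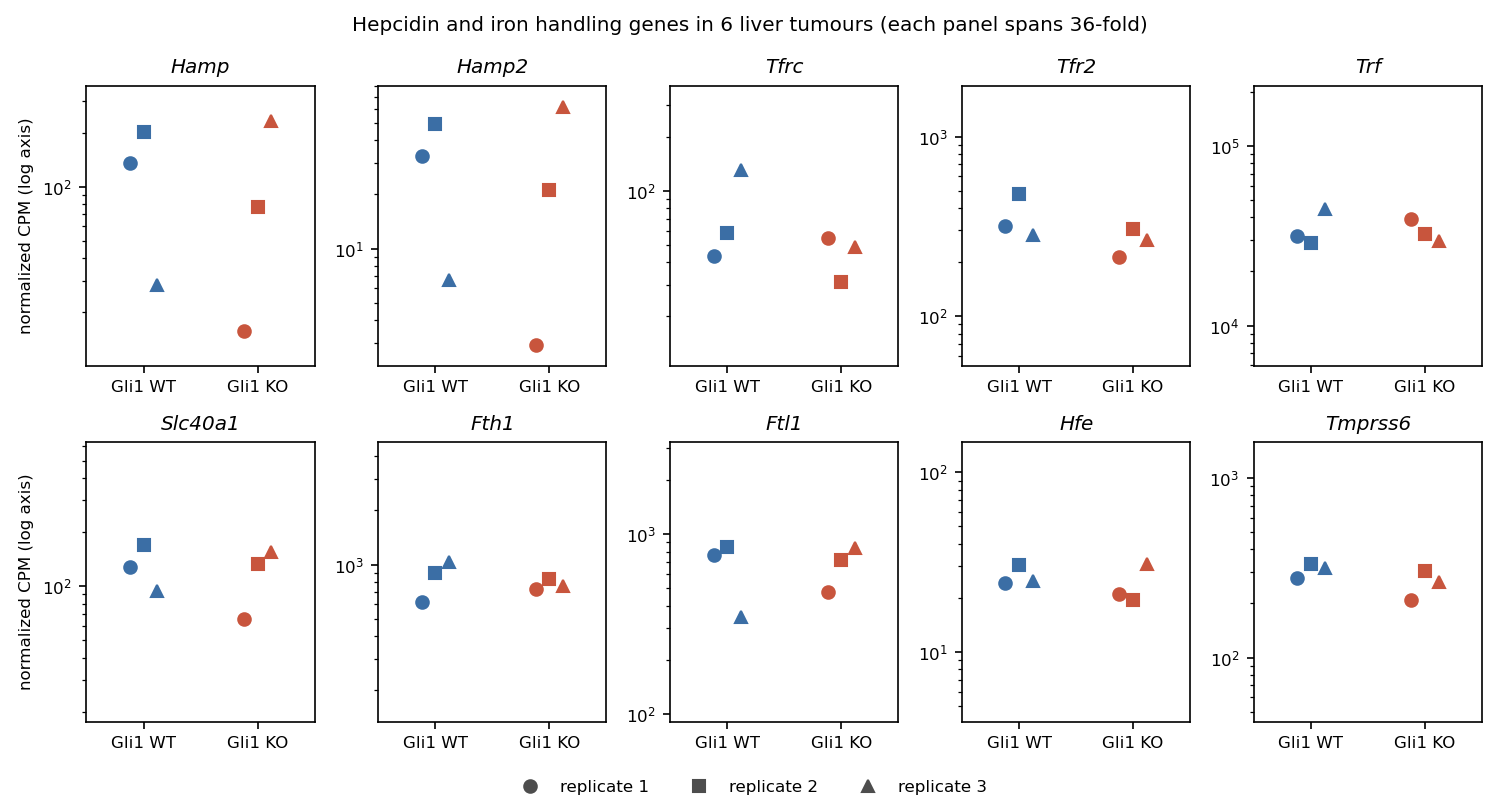
Normalized CPM of each iron gene in every library, on a log axis of equal span in all panels, with Gli1 WT in blue, Gli1 KO in red and 1 marker shape per replicate number. Hamp and Hamp2 show the widest scatter, with WT replicate 3 and KO replicate 1 low in both, and the genotypes overlap in every panel.

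The genes whose levels followed Hamp most closely were ranked by the root mean square difference of centred log2 CPM over the 6 libraries, among 13872 other genes. Hamp2 was first (0.18), followed by the organic anion transporter gene Slco1a1 (0.22), the uridine phosphorylase gene Upp2 (0.30), Gm3839 (0.41) and the carboxylesterase gene Ces1e (0.42). Slco1a1 had 27.0, 60.6 and 6.09 CPM in WT tumours and 3.68, 14.4 and 50.4 in KO. Upp2 had 317.7, 610.5 and 45.5 CPM in WT tumours and 33.9, 186.3 and 418 in KO. Both were low in the same tumours as hepcidin, which follows from their choice by likeness to Hamp. For Hamp2 the closest were Hamp, Slco1a1 (0.32), Upp2 (0.34), Lrit1 (0.46) and the methyltransferase gene Inmt (0.48).

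The surface sensors and the inhibitor that set hepcidin output spanned 1.58-fold to 2.24-fold over the tumours, less than Hamp. Tfr2 (ENSMUSG00000029716, chromosome 5, 137569851 to 137587481) encodes the transferrin receptor by which hepatocytes sense iron-loaded transferrin. It had 317.1, 477 and 282.3 CPM in WT tumours and 212.5, 305.4 and 266.5 in KO. WT replicate 2 was highest, and the KO values reached into the WT range. Its log2 fold change was -0.46 ± 0.28 (edgeR FDR 0.9997), -0.20 at the smallest when 1 library was left out. Hfe (ENSMUSG00000006611, chromosome 13, 23702034 to 23710854), whose product binds transferrin receptors and is lost in the commonest hemochromatosis, had 24.3, 30.3 and 24.8 CPM in WT tumours and 20.9, 19.4 and 31.0 in KO. The change was -0.16 ± 0.22. Tmprss6 (ENSMUSG00000016942, chromosome 15, 78439668 to 78468634) encodes matriptase-2, a hepatocyte protease that lowers hepcidin by cleaving the BMP co-receptor hemojuvelin. It had 278.1, 330.1 and 313 CPM in WT tumours and 209.3, 301.6 and 264.7 in KO, with a change of -0.25 ± 0.22. WT and KO values of Hfe and Tmprss6 overlapped, with the lowest Hfe in KO replicate 2 and the lowest Tmprss6 in KO replicate 1.

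Among the genes of iron uptake and transport, Tfrc (ENSMUSG00000022797, chromosome 16, 32608920 to 32632794), the general transferrin receptor, had 43.4, 58.4 and 131 CPM in WT. It had 54.7, 31.1 and 48.8 in KO. WT replicate 3 was the highest library, and the other 5 lay between 31.1 and 58.4 in both genotypes. The log2 fold change was -0.79 ± 0.44 (edgeR FDR 0.9997, 95% interval 0.28-fold to 1.21-fold), and -0.18 without WT replicate 3. Tfrc is also known for high expression in dividing cells and red cell precursors. Summed cell cycle markers were 25.1 to 62.5 CPM in WT tumours and 30.4 to 130.3 in KO, and summed erythroid markers 60.5 to 83.1 and 58.7 to 109.8, with 0 markers at 0 in every library of either list. Their part in the Tfrc values was not tested.

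Trf (ENSMUSG00000032554, chromosome 9, 103204001 to 103230444), the plasma carrier transferrin made by hepatocytes, had 31470, 28760 and 44720 CPM in WT tumours and 39240, 32310 and 29430 in KO tumours. The highest values were in WT replicate 3 and KO replicate 1, the tumours with least hepcidin. The change was -0.06 ± 0.32. Gm20425, which overlaps Trf, carried 96.9 to 97.8% as many reads as Trf in each library, so the counts of Trf are uncertain to the extent that reads belong to it. Slc40a1 (ENSMUSG00000025993, chromosome 1, 45908068 to 45926523), the exporter ferroportin, had 128.2, 168.5 and 93.8 CPM in WT tumours and 65.9, 133.2 and 154.1 in KO. The lowest value of each genotype was again in WT replicate 3 and KO replicate 1, and the change was -0.14 ± 0.37.

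Tfrc reads per Slc40a1 read, the importing receptor against the exporter within a library, were 0.34, 0.35 and 1.40 in WT and 0.83, 0.23 and 0.32 in KO. WT replicate 3 and KO replicate 1 held the highest ratios and the other 4 libraries lay at 0.35 or lower. The means were 0.69 ± 0.61 (SD, n = 3) and 0.46 ± 0.32, and the two-sided exact permutation test of log2 ratios gave p = 0.5 (1 after adjustment over 3 ratios). Without WT replicate 3 the KO mean was higher than the WT mean by 0.12.

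Ferritin, built of a heavy and a light chain, stores iron in the cell. Fth1 (ENSMUSG00000024661, chromosome 19, 9982703 to 9985092), the heavy chain with ferroxidase activity, had 618.3, 892.6 and 1033 CPM in WT tumours and 733, 826.5 and 761 in KO (log2 fold change -0.13 ± 0.26). Ftl1 (ENSMUSG00000050708, chromosome 7, 45457944 to 45459884), the light chain, had 765.2, 848.6 and 345.1 CPM in WT tumours and 474.7, 717.1 and 841.8 in KO (0.05 ± 0.40). WT replicate 3 held the most Fth1 and the least Ftl1 of all 6 tumours. Fth1 accordingly made up 44.7, 51.3 and 74.95% of Fth1 plus Ftl1 reads in WT and 60.7, 53.6 and 47.5% in KO. The means were 57.0 ± 15.9% (SD, n = 3) and 53.9 ± 6.62%, with an exact two-sided permutation p of 0.9 (1 after adjustment over 3 ratios). Without WT replicate 3 the KO mean was 5.93 percentage points higher than the WT mean, against -3.06 with it. Leaving out WT replicate 1 gave a difference of -9.20, leaving out KO replicate 1 gave -6.46 and leaving out KO replicate 3 gave 0.15.

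Ftl1 counts are uncertain because the mouse genome holds near-identical copies of the light chain. At 90% identity or more, 18 other rows matched Ftl1, of which 11 are short miRNA rows and 7 are longer copies outside it. The miRNA row Gm22133 lies inside Ftl1 and had 6478 to 28302 reads. The miRNA row Mir692-3 had 1803 reads in WT replicate 3 and 171 to 266 in the other libraries. The miRNA rows were left out of the sums. The 7 copies together had 13370, 11501 and 14011 reads in WT and 9972, 20637 and 13846 in KO. Most of these reads fell on Gm10116, which is 99.6% identical to Ftl1 over 910 bases. The other 6 copies together had 49 and 60 reads in WT replicates 1 and 2 and 46 to 104 in KO, but 2422 in WT replicate 3, of which 1611 were on Ftl2. Summed over Ftl1 and its copies, the level was 932.7, 1001 and 502.6 CPM in WT tumours and 569.4, 872.4 and 1009 in KO. WT replicate 3 was also the lowest after the 7 copies were added. With Ftl2 reads counted beside Ftl1, the Fth1 share in WT replicate 3 was 73.98%. The Fth1 share with all 7 copies added was not computed.

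**Figure D2:**
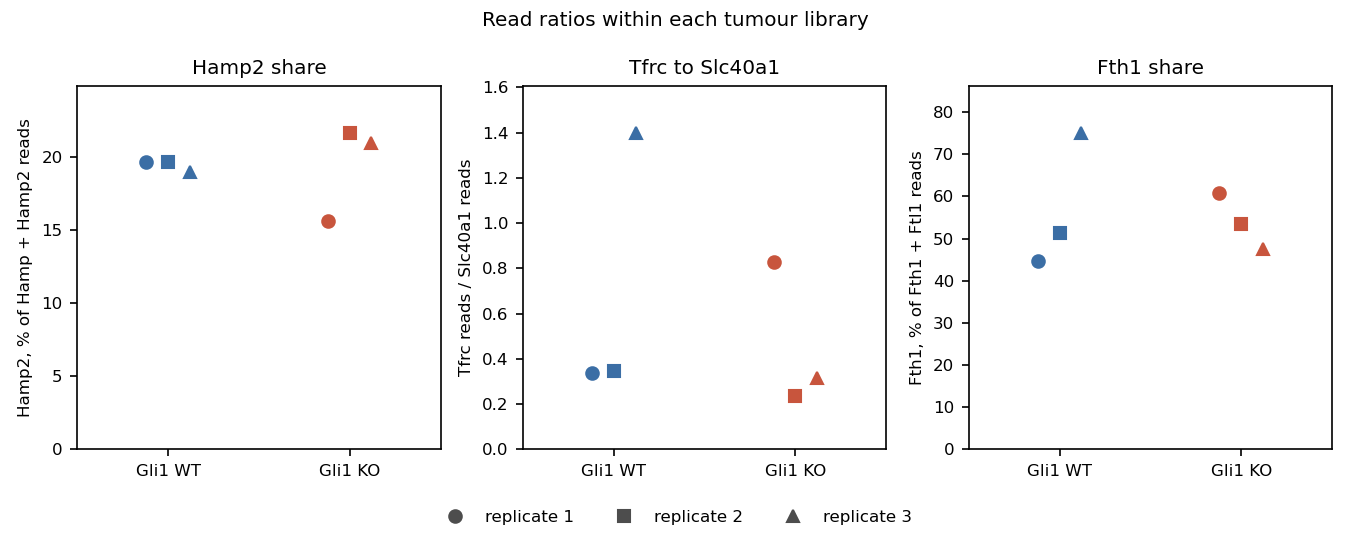
Share of Hamp2 in hepcidin reads, Tfrc reads per Slc40a1 read and share of Fth1 in Fth1 plus Ftl1 reads (y axes from 0). Each WT (blue) and KO (red) library is shown, with 1 marker shape per replicate number. WT replicate 3 and KO replicate 1 lie highest in the middle and right panels (1.40 and 0.83, 74.95 and 60.7%), and the genotypes overlap in all 3.

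Compared per length, with the deposited RPKM (reads scaled to coding length and library total), transferrin was the most abundant member at 9045 ± 1826 (SD over the 6 libraries). It was followed by Fth1 at 817.5 ± 143, Ftl1 at 434.1 ± 140, Hamp at 255.5 ± 209, Tfr2 at 91.8 ± 23.8, Tmprss6 at 77.0 ± 9.46 and Hamp2 at 58.1 ± 49.2 RPKM. The least abundant were Slc40a1 at 11.99 ± 3.80, Tfrc at 8.56 ± 4.60 and Hfe at 6.15 ± 1.32 RPKM. Only Trf was free of overlap with its neighbour in this order, with a lowest value of 7276 RPKM against a highest of 976.6 for Fth1. Each other pair of neighbours overlapped between libraries.

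**Figure D3:**
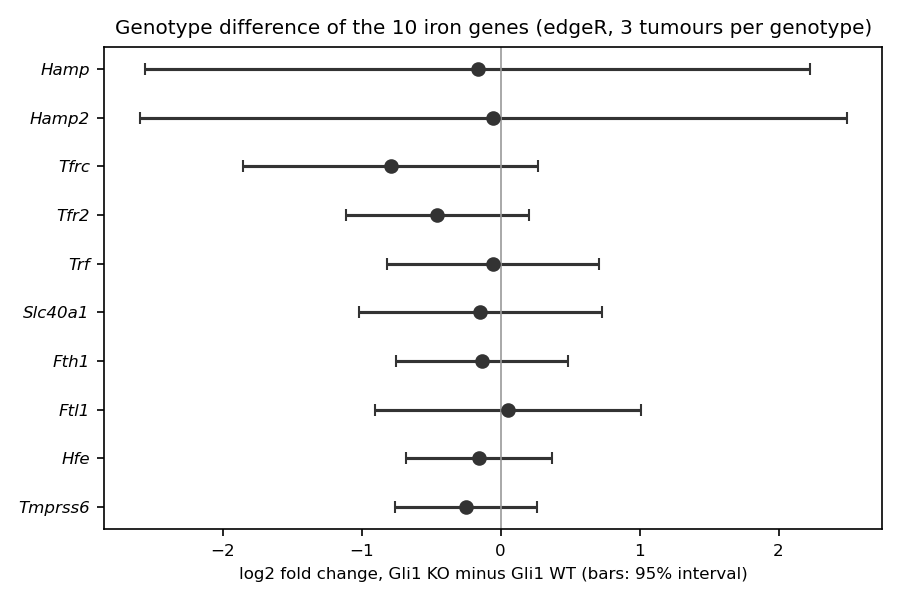
Log2 fold change of each iron gene, Gli1 KO minus Gli1 WT (points), with 95% intervals (bars) from edgeR's fit on 3 tumours per genotype. Every interval includes 0, and those of Hamp (-2.56 to 2.23) and Hamp2 (-2.60 to 2.49) are the widest.

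The genes that feed into hepcidin were described by lists of pathway genes. Of 70 pathway genes tested, 0 passed FDR 0.05 by edgeR, 27 had positive and 43 negative fold changes, and 7 had an unadjusted p under 0.05 (3.62% of all genes). Of these, Alad was higher in KO (1.60% of all genes) and Bmp2, Socs3, Slc39a14, Scara5, Cd163 and Hmox1 were lower (2.02%). In normalized CPM, genotypes did not overlap for 10 of the 70 (8.11% of all genes), 2 with each KO library above WT (4.15%) and 8 below (3.96%). Normalization factors were 0.90 to 1.01 in WT and 1.00 to 1.10 in KO libraries. In the deposited RPKM, Bmp2, Socs3, Alad and Pcbp1 also did not overlap. Slc39a14, Stat3, Hp, Pcbp2 and Eng overlapped in RPKM, and for Bmp6 the lowest WT and highest KO values were both 0.8716. DESeq2 called 2, Socs3 and Alad, where it called 0.352% of the 18206 genes it adjusted over, and limma voom called 0.

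In the BMP and SMAD list 0 of 20 genes passed, with 13 positive and 7 negative and a median log2 fold change of 0.07. Bmp2, an endothelial ligand of the hepcidin pathway, had 12.9, 10.8 and 8.12 CPM in WT tumours and 3.64, 7.14 and 6.20 in KO, so that each KO tumour lay below each WT tumour (-0.91 ± 0.31, edgeR FDR 0.9997). Bmp6, the iron-responsive endothelial ligand, had 3.81, 2.56 and 2.56 CPM in WT tumours and 2.16, 2.05 and 1.39 in KO, also without overlap (-0.68 ± 0.32). The third gene of the list without overlap, the co-receptor gene Eng, had -0.11 ± 0.13 and was named after its value was seen.

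Genes that SMAD factors switch on overlapped between genotypes. Id1, an inhibitor of helix-loop-helix factors, had 15.2, 4.40 and 8.26 CPM in WT tumours and 8.88, 8.84 and 17.9 in KO (0.36 ± 0.50). Smad7, the feedback inhibitor, had 9.47, 8.06 and 3.92 in WT and 5.76, 7.39 and 9.07 in KO (0.05 ± 0.36). Atoh8, an activator of Hamp, had 8.43, 6.29 and 3.14 in WT and 3.05, 10.1 and 7.25 in KO (0.19 ± 0.52). Smad7 and Atoh8 were lowest within each genotype in WT replicate 3 and KO replicate 1, the tumours low in Hamp, whereas Id1 was lowest in WT replicate 2. Hjv, the hemojuvelin co-receptor, had 80.4, 49.7 and 23.5 CPM in WT tumours and 48.8, 81.9 and 90.2 in KO (0.52 ± 0.46), again lowest in the same tumours. Its change ran from 0.18, with WT replicate 3 left out, to 1.01, with WT replicate 1 left out. The receptor gene Acvr1 had 0.21 ± 0.18.

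Endothelial markers are given beside these ligands. Of 10 markers, 8 were negative (9502 of 18359 over all genes) and 0 passed FDR 0.05. In normalized CPM, 6 had each KO below each WT library (3.96% of all genes). Of these 6, Stab1 and Kdr overlapped in the deposited RPKM, and Stab2, Clec4g, Fcgr2b and Oit3 did not. The 2 positive markers were Pecam1 (0.009 ± 0.32) and Cdh5 (0.07 ± 0.285), each highest in KO replicate 1. Their summed level was 313.7 to 379.9 CPM in WT tumours and 217.5 to 265.8 in KO, with 0 markers at 0. Their part in the Bmp2 and Bmp6 values was not tested.

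In the IL-6 and STAT3 list 0 of 10 genes passed by edgeR, with 8 negative, 2 positive and a median of -0.30. Socs3, the STAT3 feedback inhibitor, had 44.5, 40.6 and 63.5 CPM in WT tumours and 9.29, 5.91 and 6.61 in KO (-2.77 ± 0.27, edgeR FDR 0.407, DESeq2 adjusted p = 9.48e-14). Stat3 itself had 154, 184.6 and 265.3 CPM in WT tumours and 136.5, 153.1 and 100.6 in KO (-0.63 ± 0.28), a separation that rested on 154 against 153.1. The receptor subunits overlapped, with Il6st at -0.35 ± 0.23 and Il6ra at -0.44 ± 0.31. Il6 was at 0 to 9 reads per library and was not tested. WT replicate 3 had the most Socs3 and the least Hamp of the WT tumours, and KO replicate 3 had the most Hamp of all with 6.61 CPM of Socs3. KO replicate 1 had the least Hamp of all with 9.29 CPM of Socs3, and KO replicate 2 had the least Socs3 with 76.7 CPM of Hamp. A relation of Socs3 to Hamp was not tested.

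In the list of iron import, export and intracellular handling 0 of 21 genes passed, with 15 negative and 6 positive and a median of -0.14. Slc39a14 (ZIP14), the hepatocyte importer of iron not bound to transferrin, had 487.9, 518.7 and 749.3 CPM in WT tumours and 391.6, 411.9 and 346.4 in KO. In this measure each KO tumour was below each WT tumour (-0.61 ± 0.25, edgeR FDR 0.9997, and -0.39 without WT replicate 3). By RPKM, WT replicate 1 (35.5) lay below KO replicate 1 (36.2). Scara5, a ferritin receptor, had -2.26 ± 0.93 (-1.04 without WT replicate 2, which had 41.8 CPM against 2.15 to 14.3 elsewhere). The ferroxidase gene Cp had 2050 to 3768 CPM in WT tumours and 2331 to 3550 in KO tumours (0.14 ± 0.35). The iron chaperones Pcbp1 (0.18 ± 0.15, KO above WT) and Pcbp2 (-0.27 ± 0.17, KO below WT) also did not overlap between genotypes, and were named after their values were seen.

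Lcn2, a siderophore-binding acute-phase protein, had 78.4, 80.3 and 659.9 CPM in WT tumours and 503, 70.3 and 188.2 in KO (-0.10 ± 1.03). Its highest level in each genotype was in WT replicate 3 and KO replicate 1, the tumours with least hepcidin. Ltf, the neutrophil iron binder lactoferrin, had 4.91 CPM in WT replicate 3 against 0.09 to 0.56 elsewhere. Summed neutrophil markers were 45.8 CPM in WT replicate 3 and 5.003 to 15.4 in the other 5 libraries, with 0 of 10 at 0 in every library, and their part in the Lcn2 and Ltf values was not tested.

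In the heme list 0 of 19 genes passed by edgeR, with 13 negative and 6 positive and a median of -0.13. Alad, the second enzyme of heme synthesis, had 60.7, 59.9 and 41.9 CPM in WT tumours and 113.2, 102.6 and 128.1 in KO. Each KO tumour was above each WT tumour (1.08 ± 0.21, edgeR FDR 0.9997, DESeq2 adjusted p = 0.0139), and the value lay between 0.93 and 1.17 when each library was left out. Hmox1, the inducible heme oxygenase that frees iron from heme, had 12.4, 25.3 and 25.6 CPM in WT tumours and 10.98, 13.6 and 13.2 in KO (-0.74 ± 0.30). Cd163, the macrophage receptor for hemoglobin, had -1.99 ± 0.74, and -1.29 without WT replicate 2. Cd163 is itself 1 of the 12 macrophage markers listed. The other 11 summed to 148.3 to 475.4 CPM in WT tumours and 115.5 to 202.4 in KO, with 10 of 11 negative and 0 at 0 in every library, and their part in the Hmox1 and Cd163 values was not tested. Hp, the hemoglobin scavenger haptoglobin, was the other gene of the list without overlap (-0.48 ± 0.28), named after its value was seen.

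**Figure D4:**
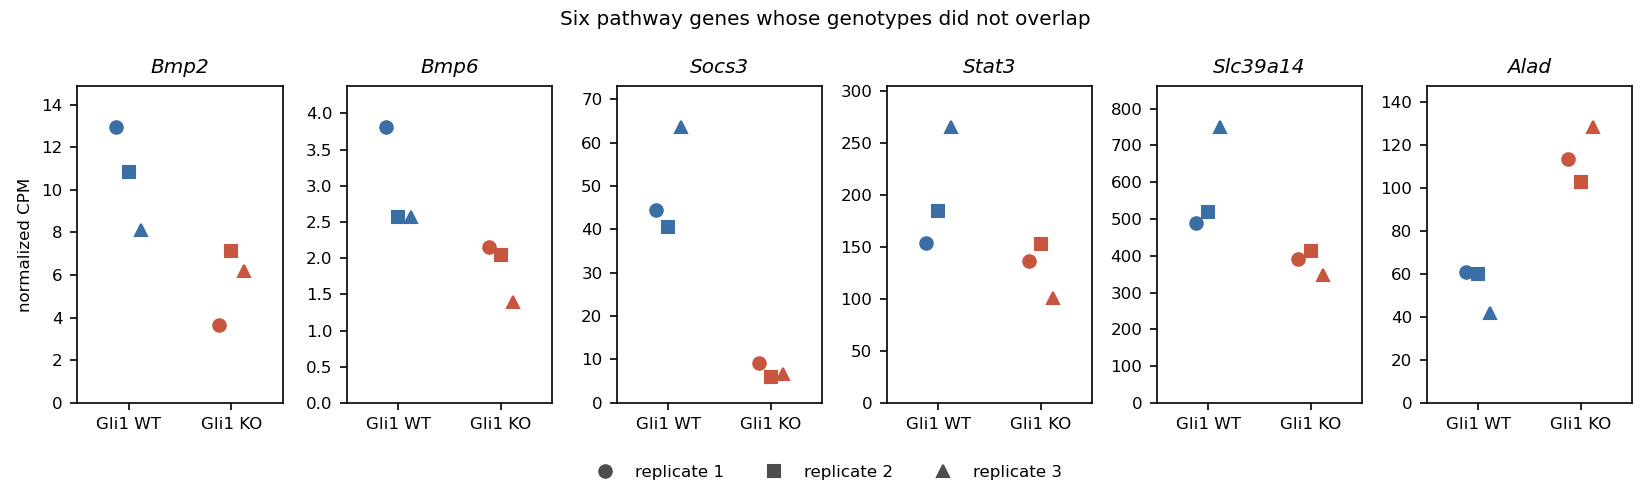
Normalized CPM (y axes from 0) of 6 pathway genes whose WT (blue) and KO (red) libraries did not overlap, with 1 marker shape per replicate number. Bmp2, Bmp6, Socs3, Stat3 and Slc39a14 lie lower and Alad higher in the KO libraries, with 0 of them past FDR 0.05 by edgeR. In the deposited RPKM, Stat3 and Slc39a14 overlapped between genotypes.

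**Figure D5:**
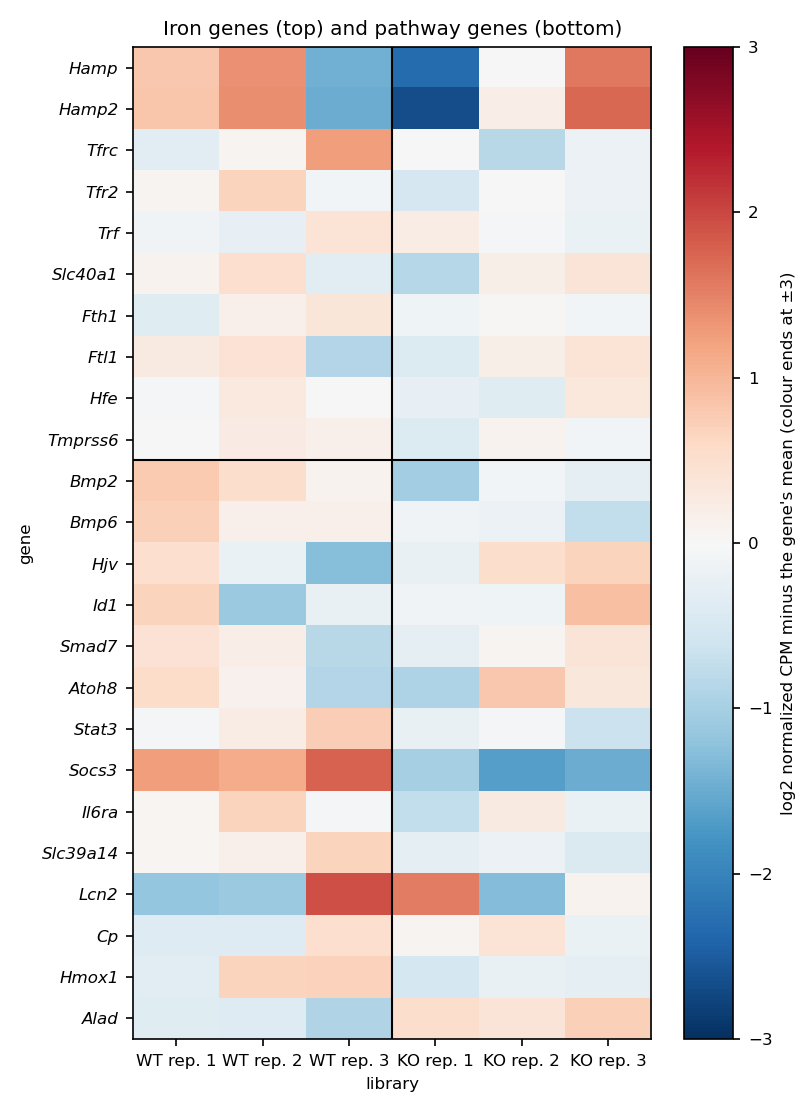
Log2 normalized CPM of the 10 iron genes (upper rows) and 14 pathway genes (lower rows), each centred on its mean over the 6 libraries (columns), with red above and blue below the mean. Hamp and Hamp2 are blue in WT replicate 3 and KO replicate 1, where Lcn2 is red, while Socs3 is red in the 3 WT and blue in the 3 KO libraries.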

How the data were processed

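RNA of 6 tumours was sequenced, and samples were grouped by their titles. The authors deposited 1 table of raw read counts and RPKM per gene. HTSeq, TopHat2 2.0.6 and bcl2fastq are named in the submitters' processing notes, without roles, as are human builds, although the identifiers are mouse. Of 42462 identifiers shared with GENCODE M21 (GRCm38), 99.8% started within 100 kb of it, so deposited coordinates are read as GRCm38. The gene limits were not all the same, since 78.9% had the same start and end. Fth1, for example, starts at 9982703 as deposited and at 9980598 in GENCODE M21. The strand setting of the counting was not given in the sources used here. RPKM as deposited rest on library totals 12.6 to 19% above the summed counts, and served for levels between genes and as an alternative in ratios.

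Counts were tested with edgeR 4.0.16 (R 4.3.3; filterByExpr, TMM, robust quasi-likelihood, two-sided, Benjamini-Hochberg over 18359 genes, FDR 0.05). Normalized CPM use TMM-scaled library sizes. SE is the absolute log2 fold change over the square root of F. Alternatives were DESeq2 1.42.0, limma 3.58.1 voom, RLE factors, 2 other filters, a replicate block, the range of the description number, removal of the 10 most counted genes and leaving out each library. Leaving out WT replicate 3 with KO replicate 1, and counting Ftl2 with Ftl1, were added after seeing the data. Copies were found with blastn 2.17.0. The members and lists were chosen with earlier results of these data known. All members were named, with 12 fixed partners and the 3 genes of smallest p in each of 4 pathway lists. Of 151 entries in 12 lists, all matched, 7 by another name.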

Additional observations from a re-analysis of the deposited data

How the results depend on the processing

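No member passed FDR 0.05 under any of the 14 alternatives that kept all members or the 1 that removed Trf as a most counted gene. DESeq2 called 64 genes and 2 pathway genes, where edgeR called 0 of each, and no other alternative called any. The labels do not say whether same-numbered replicates were paired. Their description numbers were 1759 and 1767, 4204 and 4206, and 3981 and 1647. Deviations from the genotype mean correlated at -0.25, 0.22 and -0.45 within these pairs. With 3 libraries per genotype such values cannot decide on a pairing. For each WT library the largest correlation was with a KO library of another number. It was 0.585 for WT replicate 3 with KO replicate 1. With KO replicate 3 it was 0.369 for WT replicate 2 and 0.21 for WT replicate 1. The replicate block called 0 genes and gave Hamp at -0.79, against -0.17 in the main fit. It left 502 genes at an unadjusted p under 0.05 against 665. Leaving out WT replicate 3 raised the number at an unadjusted p under 0.05 to 1779. Directions turned for values near 0 or resting on 1 library. With voom, Lcn2 was 0.27 and Sulf2 -0.038, and with the replicate block Lcn2 was 0.15. With the number range as covariate, Fth1 was 0.026, Smad7 -0.025 and Sulf2 -0.74. Without both WT replicate 3 and KO replicate 1, the log2 fold change was 0.02 for Hamp2, 0.04 for Trf, 0.078 for Fth1, -0.04 for Ftl1, -0.08 for Smad7, 0.71 for Lcn2 and -2.78 for Sulf2. When each library was left out, the log2 fold change ran from -1.39 to 0.41 for Hamp, -1.30 to 0.53 for Hamp2, -0.39 to 0.15 for Slc40a1, -0.18 to 0.16 for Trf, -0.31 to 0.04 for Fth1 and -0.25 to 0.29 for Ftl1. It ran from -0.020 to 0.50 for Cp, -3.37 to 0.52 for Ltf, -0.24 to 0.31 for Smad7, -0.20 to 0.55 for Atoh8, -0.070 to 0.91 for Id1, -1.06 to 1.68 for Lcn2 and -2.27 to 2.81 for Sulf2. With no change of sign it ran from 0.18 to 1.01 for Hjv, -0.71 to -0.18 for Il6ra, -0.39 to -0.02 for Hfe, -0.37 to -0.11 for Tmprss6, -0.60 to -0.20 for Tfr2 and -0.79 to -0.38 for Stat3. The KO minus WT difference ran from -1.13 to 1.87 percentage points for the Hamp2 share and from -0.42 to 0.12 for the Tfrc to Slc40a1 ratio. The cause was not tested. The lowest count of a member in any library was 307 reads, for Hamp2.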
